A study of Mus musculus with 20 samples.

Results

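Genes for the subunits of ion channels were followed through patterns of gonadotropin-releasing hormone (GnRH) in LβT2 cells, an immortalised mouse pituitary gonadotrope line. Members were the probe sets whose single annotated gene symbol begins with the letters of a potassium (Kcn), calcium (Cacn), sodium (Scn), CLC chloride (Clcn), TRPC, TRPM or TRPV (Trpc, Trpm, Trpv), inositol trisphosphate receptor (Itpr) or ryanodine receptor (Ryr) gene. A member was kept if its signal exceeded 427 intensity units on at least 2 of the 20 arrays. The symbols matched 102 probe sets for 78 genes, and 52 probe sets for 42 genes were kept, of 8494 kept on the whole array of 12488 probe sets. One of them, Trpc4ap, matches by its letters alone and encodes a protein that associates with TRPC4, not a channel.

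GnRH reaches its receptor on gonadotropes in pulses and acts through Gq, phospholipase C and inositol trisphosphate. Inositol trisphosphate receptors release calcium from the endoplasmic reticulum, and voltage-gated calcium channels carry calcium in during the action potentials that follow, which together drive gonadotropin secretion. Potassium channels set the resting potential and end each burst, auxiliary subunits (beta, gamma, KCNE and Kvβ proteins) govern how many pores reach the membrane and how they gate, and several CLC proteins are chloride/proton exchangers of endosomes, lysosomes and synaptic vesicles.

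Cells of this one line, on microcarrier beads, were perifused for 4 h with serum-free medium, either unstimulated or with GnRH at 100 nM or 10 nM. Pulses lasted 2 min. At 100 nM the groups received 1 pulse, 2 pulses, 4 pulses, 8 pulses or tonic (continuous) hormone, and at 10 nM 1 pulse, 4 pulses, 8 pulses or tonic hormone, with 118, 58 or 28 min between repeated pulses. Each of the 10 groups had 2 Affymetrix arrays, named by a letter: A and D for unstimulated and 100 nM, B and C for 10 nM, so the letter and the low dose cannot be told apart. All values below that are given in pairs are MAS5 signals in linear intensity units, array A before D, or B before C. Groups follow the sample titles, which disagree with the pulse number in another label field in 8 of 20 samples.

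Median array signals ran from 705 to 836, and the ratio of the 3' to the 5' Gapdh probe set, a sign of RNA quality, ran from 0.900 to 1.08 on 17 arrays but was 1.69 on 8 pulses 100 nM A, 1.21 on 4 pulses 100 nM A and 1.23 on 4 pulses 100 nM D. Of 8 gonadotrope markers on the array, 7 were above the minimum on at least 2 arrays. Fshb, the follicle-stimulating hormone beta subunit, was above it on 1 array. Of the markers of other pituitary cells, Pomc and Tshb were above it on 0 arrays and Prl on 4, but Gh, Ghrhr and Drd2 were above it on all 20 and Crhr1 on 15. Of 8 markers of other tissues, Ptprc (leukocytes) was above it on 0 arrays, but Pecam1 (endothelium) and Col1a1 (fibroblasts) were above it on 20, Alb (liver) on 19, Myh6 (heart muscle) on 18, Cd68 (macrophages) on 17, Gfap (glia) on 9 and Acta1 (skeletal muscle) on 8.

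Changes are differences of group means of log2(signal + 166.8), written as log2 change ± standard error, with a Benjamini-Hochberg adjusted p over all 8494 probe sets from limma at a threshold of 0.05. The added constant makes the change of a weakly expressed gene look smaller than it was. Whether the arrays within a group came from separate columns of cells is not recorded, so p measures the spread between arrays, which may be technical.

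Kept members were unevenly spread over channel types. The chloride type had 11 of 13 probe sets kept and the two-pore potassium type 4 of 5. Voltage-gated potassium pores had 10 of 19, calcium pores 5 of 8, calcium channel auxiliary subunits 3 of 5, potassium auxiliary subunits 4 of 8, calcium- or sodium-activated potassium channels 3 of 4 and TRP channels 3 of 8. Inward rectifiers had 4 of 15, sodium pores 1 of 8, inositol trisphosphate receptors 2 of 4 and ryanodine receptors 1 of 4. Of all 102 probe sets, 46 were never above the minimum and 4 were above it on 1 array. Just outside the minimum were Kcnj1, whose second-highest signal was 419.7, Cacna2d1 at 398 and Kcnc1 at 396. Just inside were Scn8a at 436, Cacna1s at 444 and Kcna3 at 459.8.

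Of the kept probe sets, 26 were above the minimum on all 20 arrays and 10 on only 2 to 4 arrays. These 10 were for Cacna1g, Cacna1h and Cacna1s among calcium pores, Kcna2, Kcna3, Kcna4, Kcnd3 and 1 probe set of Kcnd2 among voltage-gated potassium pores, Kcnj6 and Scn8a. Probe sets that stayed at or below the minimum included those for Kcnj11, the ATP-sensitive potassium pore, with a highest signal of 320.1, Ryr2 at 419, the sodium pore Scn3a at 169, Trpc1 at 388 and 97.9, and Trpc6 at 52.4.

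The limma moderated F test of any difference among the 10 group means called 10 of the 52 probe sets, or 19.2%. It called 18.5% of all 8494, so the share was close to the background. These 10 came from 8 genes: Trpv2, Clcn3 (3 probe sets), Cacng1, Cacng2, Cacnb2, Kcnk3, Kcnd2 and Kcnab2. By type, all 3 kept calcium channel auxiliary probe sets were called, 3 of 11 chloride, 1 of 3 TRP, 1 of 4 two-pore potassium, 1 of 4 potassium auxiliary and 1 of 10 voltage-gated potassium pore probe sets. None of the 5 calcium pores, 4 inward rectifiers, 3 calcium- or sodium-activated potassium channels, 2 inositol trisphosphate receptor probe sets, the sodium pore or the ryanodine receptor was called, while 19 of the 52 had an unadjusted p under 0.05 (36.5%, against 32.3% of all).

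**Figure D1:**
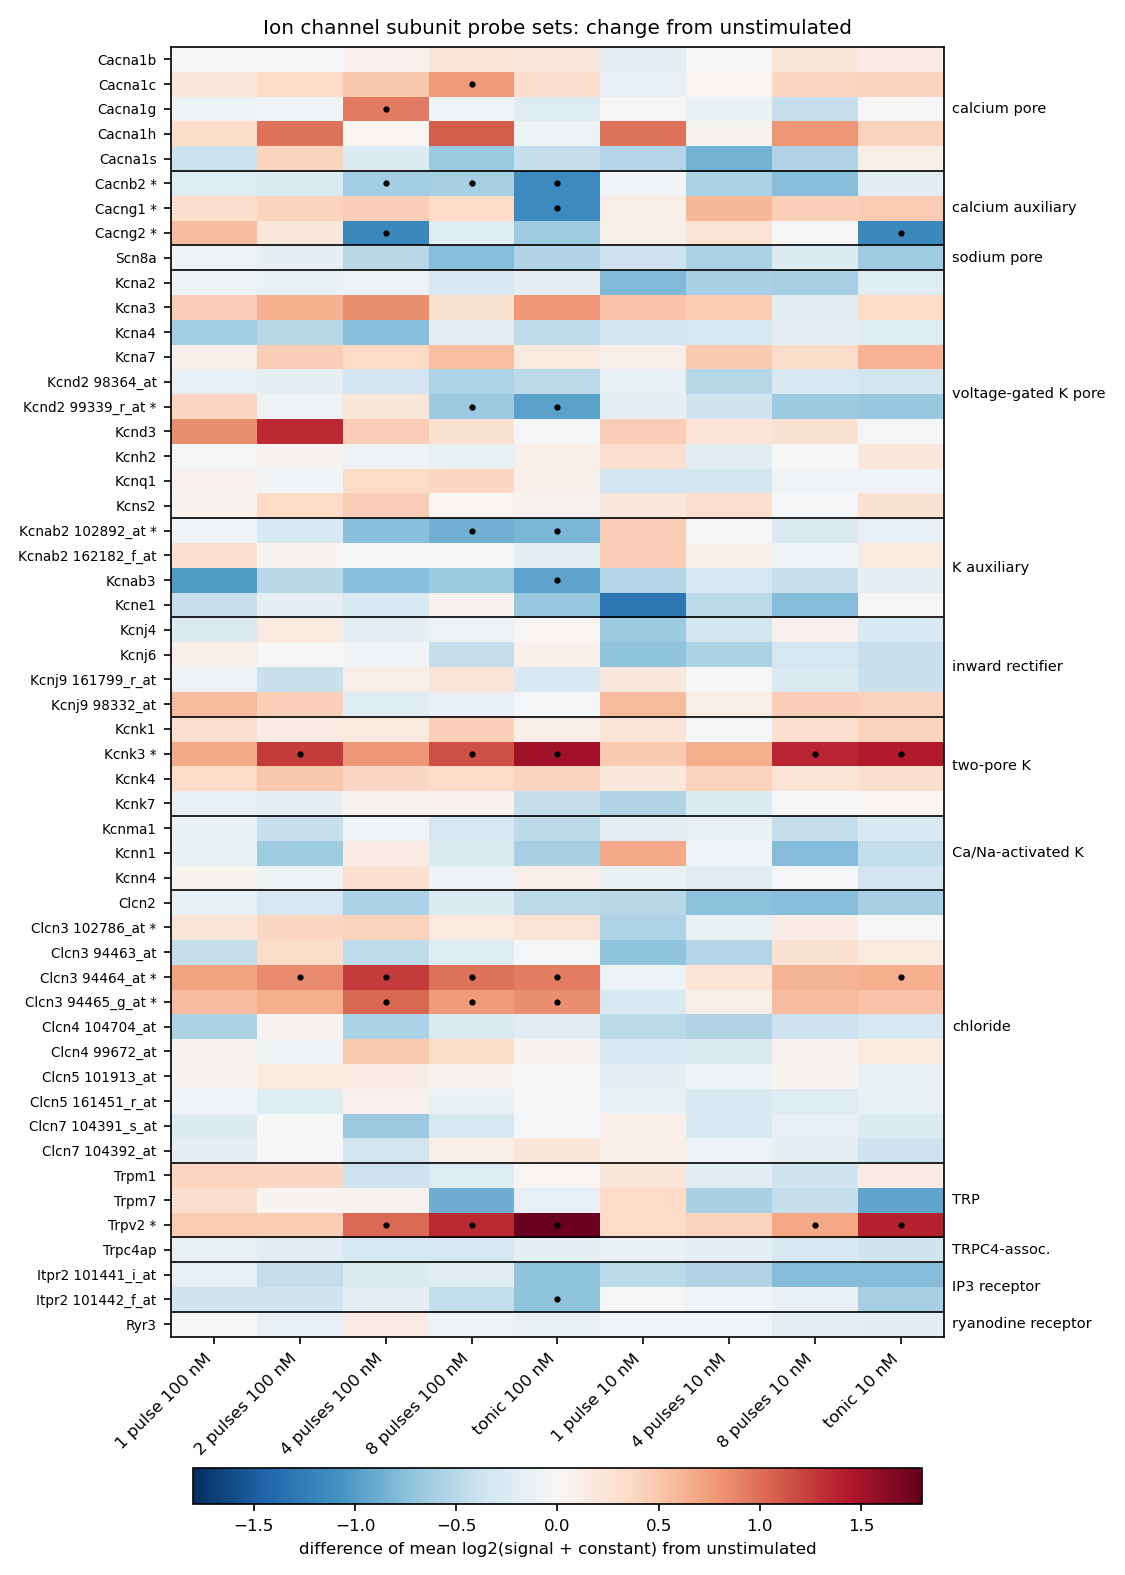
Change of each of the 52 kept probe sets from unstimulated (colour, difference of mean log2(signal + constant); rows ordered by channel type, columns the 9 GnRH patterns, 2 arrays each). A star marks the 10 probe sets called over the 10 groups and a black dot a pattern past an adjusted p of 0.05. Trpv2, Kcnk3 and 2 probe sets of Clcn3 hold most of the dots on red cells (rises). Cacnb2 holds the most dots on blue cells (falls).

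Trpv2, a calcium-permeable cation channel of the vanilloid TRP family, rose with pulse number at 100 nM. Its signals were 1252 and 951 unstimulated, 1456 and 1670.2 after 1 pulse, 1647 and 1474 after 2 pulses, 2333 and 2454 after 4 pulses, 3177 and 2886 after 8 pulses and 4408 and 3885 under tonic hormone. Every 100 nM array was above both unstimulated arrays, and from 2 pulses to tonic no neighbouring groups overlapped. At 10 nM they were 1411 and 1492 after 1 pulse, 1562 and 1470.4 after 4 pulses, 1666 and 2103 after 8 pulses and 2902 and 3350.0 under tonic hormone, so tonic 10 nM overlapped 8 pulses at 100 nM.

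The change of Trpv2 over all 100 nM patterns was 1.01 ± 0.13 (adjusted p 7.95e-05) and over all 10 nM patterns 0.71 ± 0.14 (adjusted p 0.0112). The largest of its changes was 1.77 ± 0.17 under tonic 100 nM, a 3.42-fold rise (adjusted p 1.37e-06). Tonic 10 nM gave 1.38 ± 0.17 (adjusted p 7.63e-05), a 2.61-fold rise. Each doubling of pulse number at 100 nM added 0.32 ± 0.06 (adjusted p 0.00129). At 10 nM the value per doubling was 0.10 ± 0.06 (adjusted p 0.46), and the difference between the doses, 0.22 ± 0.08, did not pass (adjusted p 0.761). Tonic against 8 pulses did not pass at either dose, with 0.43 ± 0.17 at 100 nM (adjusted p 0.997) and 0.69 ± 0.17 at 10 nM (adjusted p 0.845). The 10 nM call over all patterns was lost without unstimulated array D (0.54, adjusted p 0.216). Trpv2 was higher at 100 nM than at 10 nM by 0.43 ± 0.09 (adjusted p 0.00175), and by 0.36 ± 0.11, no longer past the threshold, without the 3 arrays of raised Gapdh ratio (adjusted p 0.0596).

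The macrophage marker Cd68 was read by a probe set of suffix s, and whether its probes match other transcripts was not checked. Cd68 was higher in the groups where Trpv2 was high. Its signal was 319 to 521 unstimulated, and at 100 nM it was 673 to 772 after 1 pulse, 652 to 853 after 2 pulses, 993 to 1556 after 4 pulses, 1824 to 1851 after 8 pulses and 2479 to 3157 under tonic hormone. At 10 nM it was 286 to 669, 352 to 479 and 696 to 1140 after 1, 4 and 8 pulses, and 1023 to 1763 under tonic hormone. The summed signal of the 8 markers of other tissues was 4808 to 4957 unstimulated and from 4451 (1 pulse at 10 nM) to 6318 (4 pulses at 100 nM) after 1, 2 or 4 pulses. It was 6629 to 7478 after 8 pulses and 6604 to 7945 under tonic hormone at 100 nM, against 5119 to 5782 and 5920 to 7610 at 10 nM. Without Cd68, the sum of the other 7 was 4287 to 4637 unstimulated, 4805 to 5627 after 8 pulses and 4125 to 4788 under tonic hormone at 100 nM, and 4423 to 4643 and 4897 to 5847 at 10 nM. Ptprc did not exceed 125 on any array. The part of these markers in the values of Trpv2 and of the other members that changed after 8 pulses or under tonic hormone was not tested.

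The other kept TRP channels, Trpm1 and Trpm7, did not pass in any comparison. Trpm7, a channel fused to a kinase, ran from 102 to 1087 with a median of 718, and Trpm1 from 169 to 783. Trpc4ap was among the brightest members, between 6764 and 9871 on every array, and its change at 100 nM was -0.22 ± 0.13 (adjusted p 0.262).

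Kcnk3 encodes TASK-1, a two-pore potassium channel that carries background (leak) potassium current and is inhibited through Gq-coupled receptors. It was 434 and 266 unstimulated, 585 and 727 after 1 pulse, 834 and 1315 after 2 pulses, 573 and 899 after 4 pulses, 917 and 1024 after 8 pulses and 1077 and 1523 under tonic hormone at 100 nM. With 10 nM hormone it was 515 and 568 after 1 pulse, 725 and 549 after 4 pulses, 1399 and 943 after 8 pulses and 1269 and 1133 under tonic hormone. Every array with GnRH, at either dose, was above both unstimulated arrays, while the 100 nM pulse groups were not ordered by pulse number: 2 pulses lay above 1 pulse, and the arrays of 4 pulses overlapped both.

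Kcnk3 rose by 1.08 ± 0.21 over the 100 nM patterns (adjusted p 0.00197) and 0.98 ± 0.21 over the 10 nM patterns (adjusted p 0.0228). Tonic hormone gave 1.51 ± 0.27 at 100 nM (adjusted p 0.00057) and 1.42 ± 0.27 at 10 nM (adjusted p 0.00302), or 2.84-fold and 2.68-fold. The trend in pulse number was 0.10 ± 0.08 at 100 nM (adjusted p 0.581) and 0.27 ± 0.09 at 10 nM (adjusted p 0.126). Both calls over all patterns of a dose rest on the unstimulated pair: without array D they were 0.84 (adjusted p 0.0887) and 0.74 (adjusted p 0.268), and the 10 nM call was also lost without array A (1.22, adjusted p 0.0636). Of the other two-pore channels, Kcnk1, Kcnk4 and Kcnk7, 0 passed in any comparison, and Kcnk1 lay between 2522 and 4663.

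Among the voltage-gated potassium pores, Kcnd2 (Kv4.2, an A-type channel that opens briefly and delays firing) was called by its brighter probe set. That probe set read 4044 and 5082 unstimulated, 5809 and 6122 after 1 pulse, 3761 and 4810.2 after 2 pulses, 4716 and 6014 after 4 pulses, 2805 and 2853 after 8 pulses and 2341 and 2162 under tonic hormone at 100 nM. At 10 nM it read 4744 and 3393, then 4318 and 2850.1, then 3015 and 2654 after 1, 4 and 8 pulses, and 2863 and 2653 under tonic hormone. The arrays of 8 pulses and of tonic hormone were below both unstimulated arrays at each dose, and those of 1 pulse at 100 nM were above them.

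Kcnd2 fell by 0.96 ± 0.21 under tonic 100 nM (adjusted p 0.00295) and by 0.65 ± 0.21 after 8 pulses (adjusted p 0.0433), and each doubling of pulse number at 100 nM gave -0.28 ± 0.07 (adjusted p 0.0148). The 8-pulse call was lost in 12 of the 20 fits that left out 1 array, down to -0.49 without unstimulated D (adjusted p 0.274), and the trend was lost without 8 pulses 100 nM A (adjusted p 0.0705) or 1 pulse 100 nM A (0.0616) or D (0.0909). This probe set carries the suffix for probes whose selection rules were relaxed. The other Kcnd2 probe set was dim, between 156 and 530.0, and had an adjusted p of 0.909 over the 10 groups. Its changes at 100 nM were -0.14, -0.18, -0.35 and -0.55 after 1, 2, 4 and 8 pulses, and -0.47 under tonic hormone. Those of the brighter probe set after 1, 2, 4 and 8 pulses were 0.38, -0.09, 0.22 and -0.65. The 2 probe sets thus differed in sign after 1 and 4 pulses. Kcnh2 (ERG1, which sets the resting potential of pituitary cells) lay between 1464 and 3343, with -0.02 ± 0.18 at 100 nM (adjusted p 0.963).

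Potassium channel beta subunits were lower in several 100 nM groups on 1 probe set each of Kcnab2 and Kcnab3. Kcnab2, which encodes Kvβ2, read 1996 and 1517 unstimulated, 1827 and 1484 after 1 pulse, 1406 and 1413 after 2 pulses, 998 and 938 after 4 pulses, 751 and 1019 after 8 pulses and 726 and 1136 under tonic hormone. The 10 nM values were 2745 and 2151, 2369 and 1217, 1659 and 1234 after 1, 4 and 8 pulses, and 1635 and 1476 under tonic hormone. From 4 pulses up, the 100 nM arrays were below every unstimulated and every 10 nM array.

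Kcnab2 fell by 0.87 ± 0.26 after 8 pulses (adjusted p 0.0322) and by 0.82 ± 0.26 under tonic hormone (adjusted p 0.0324) at 100 nM. The first call was lost without 8 pulses 100 nM A (-0.69, adjusted p 0.206) or unstimulated A (adjusted p 0.204) or D (adjusted p 0.0567), and the second without tonic 100 nM A (-0.55, adjusted p 0.262) or unstimulated A (adjusted p 0.209). It changed by -0.29 ± 0.08 per doubling of pulse number at 100 nM (adjusted p 0.0439) and was lower at 100 nM than at 10 nM by 0.63 ± 0.13 (adjusted p 0.0022). Its second probe set, whose probes are shared within a family, did not pass over the 10 groups (adjusted p 0.412). It gave -0.03 ± 0.21 after 8 pulses (adjusted p 0.954) and -0.16 ± 0.21 under tonic hormone (adjusted p 0.649) at 100 nM, so the 2 probe sets of Kcnab2 do not give one answer. Without the 3 arrays of raised Gapdh ratio, the trend was -0.20 ± 0.11 (adjusted p 0.372) and the dose difference -0.54 ± 0.17 (adjusted p 0.0551), so the threshold was no longer passed. The trend was also lost in 11 of the 20 fits that left out 1 array, with the highest adjusted p, 0.23, without 8 pulses 100 nM A.

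Kcnab3, for Kvβ3, was 916 and 1282 unstimulated and between 293 and 879 on the 10 arrays at 100 nM, with no overlap. Over the 100 nM patterns it fell by 0.78 ± 0.21 (adjusted p 0.0175), and it was lower than at 10 nM by 0.50 ± 0.13 (adjusted p 0.0118). Without unstimulated array D the 100 nM change was -0.56 (adjusted p 0.281), and without the 3 arrays of raised Gapdh ratio the dose difference was -0.54 (adjusted p 0.0652). Kcne1, which slows the KCNQ1 current, ran from 128 to 711 and passed in 0 comparisons.

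**Figure D2:**
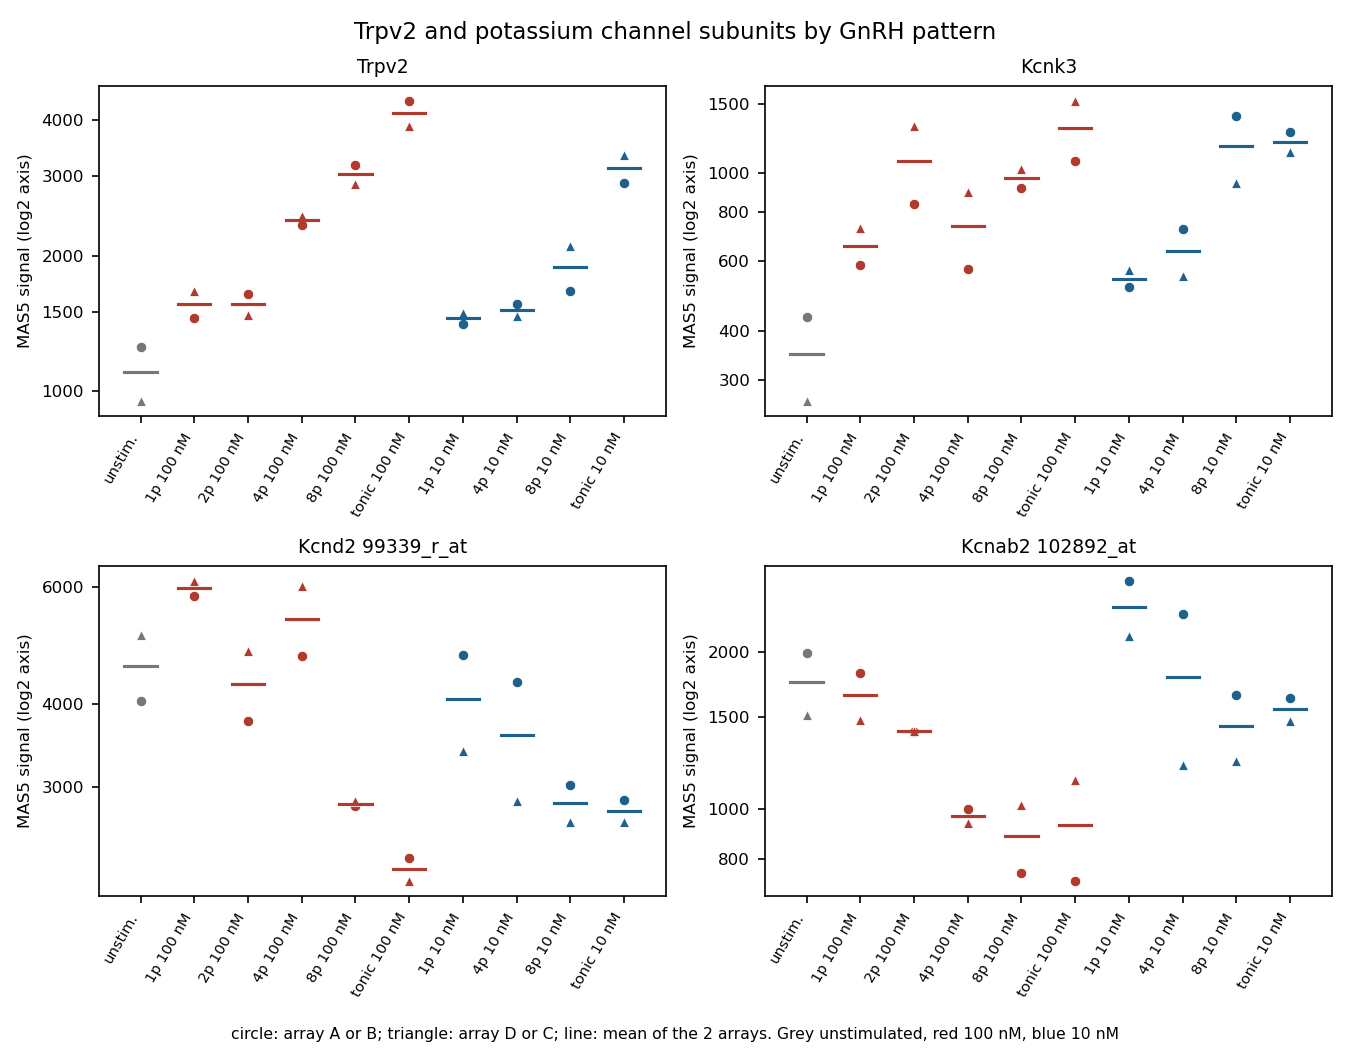
Signals of Trpv2, Kcnk3, Kcnd2 and Kcnab2 (vertical, MAS5 signal on a log2 axis) in the 10 groups (horizontal; grey unstimulated, red 100 nM, blue 10 nM; points are single arrays, lines the mean of 2). Trpv2 and Kcnk3 lie above the unstimulated pair in every GnRH group, and Kcnd2 and Kcnab2 lie below it after 8 pulses and under tonic hormone at 100 nM.

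Chloride channel and exchanger genes included the brightest members. Clcn3 encodes a chloride/proton exchanger of endosomes and synaptic-like vesicles and was read by 4 probe sets, of which 3 were called over the 10 groups. Its probe sets 94464_at and 94465_g_at rose in the 100 nM groups. The first read 7360.2 and 6215 unstimulated, 12709.8 and 10097 after 1 pulse, 11617 and 13127 after 2 pulses, 15624 and 17367 after 4 pulses, 13849 and 13089 after 8 pulses and 14408 and 11631 under tonic hormone. The 10 nM arrays read 6608 and 5909 after 1 pulse, 7837 and 8202 after 4 pulses, 9229.6 and 11823 after 8 pulses and 8764 and 13076 under tonic hormone. All 100 nM arrays were above the unstimulated pair, which the 1 pulse 10 nM arrays overlapped.

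On 94464_at, Clcn3 rose by 0.95 ± 0.15 over the 100 nM patterns, or 1.93-fold (adjusted p 0.00041), and the 10 nM value was 0.35 ± 0.15 (adjusted p 0.235). At 100 nM it was higher than at 10 nM by 0.62 ± 0.10 (adjusted p 0.000256). The change was greatest after 4 pulses at 100 nM, 1.26 ± 0.19 (adjusted p 0.000443), on the 2 arrays with Gapdh ratios of 1.21 and 1.23, whose part in this value was not tested; without those 2 arrays and 8 pulses 100 nM A the change over the 100 nM patterns was 0.86 ± 0.16 (adjusted p 0.00293). The 94465_g_at probe set gave 0.77 ± 0.14 over the 100 nM patterns (adjusted p 0.00161) and 0.57 ± 0.09 for the dose difference (adjusted p 0.000336). Whether these 2 probe sets share probes was not checked, so they are not counted as independent readings.

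The brightest Clcn3 probe set, 102786_at, was 14562 and 20332 unstimulated and 11803 and 11622 after 1 pulse at 10 nM, the lowest of the 10 groups, against 14731 and 17129 after 4 pulses and 17166 and 20601 after 8 pulses. It was higher at 100 nM than at 10 nM by 0.41 ± 0.09 (adjusted p 0.00283; 0.31, adjusted p 0.0883, without the 3 arrays of raised Gapdh ratio), but its change from unstimulated over the 100 nM patterns was 0.29 ± 0.14 (adjusted p 0.164). The dimmest, 94463_at, lay between 870.3 and 2643 and did not pass over the 10 groups (adjusted p 0.0847). Its value over the 100 nM patterns was -0.16 ± 0.23 (adjusted p 0.694), so the probe sets of this gene do not give one answer at 100 nM.

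At 10 nM, Clcn3 was the only member called in the trend in pulse number, with 0.26 ± 0.06 per doubling on 94465_g_at (adjusted p 0.0239) and 0.22 ± 0.06 on 102786_at (adjusted p 0.0499). The first was lost without any array of 1 or 8 pulses at 10 nM (adjusted p 0.1 to 0.222), and the second in 15 of the 20 fits that left out 1 array (up to 0.335, without 1 pulse 10 nM C). The other 2 probe sets gave 0.23 ± 0.06 and 0.30 ± 0.10 (adjusted p 0.0633 and 0.126). A fit with the array letter as a replicate block pairs the arrays by letter at both doses, A and D as well as B and C. With that block the number of members called in this trend went from 2 to 5: all 4 Clcn3 probe sets upward and Cacnb2 downward (-0.24, adjusted p 0.029). The difference of the trends between doses was -0.16 ± 0.08 on 94465_g_at (adjusted p 1) and -0.24 ± 0.08 on 102786_at (adjusted p 0.715).

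Among the other chloride genes, Clcn4, an endosomal exchanger, was higher at 100 nM than at 10 nM on 1 of its 2 probe sets, by 0.31 ± 0.09 (adjusted p 0.0178). That comparison includes 4 pulses, where the change of this probe set from unstimulated was 0.48 at 100 nM and -0.27 at 10 nM. The fit without the 3 arrays of raised Gapdh ratio leaves 4 pulses out. This probe set lay between 2145 and 4224, and without the 3 arrays of raised Gapdh ratio the difference was 0.12 ± 0.11 (adjusted p 0.553). It was also lost without array B of 1 pulse, 8 pulses or tonic at 10 nM (adjusted p 0.0521, 0.057 and 0.0522). The other Clcn4 probe set lay between 1984 and 3802. Its changes from unstimulated at 100 nM were -0.57, -0.57, -0.26 and -0.21 after 1, 4 and 8 pulses and under tonic hormone. At 10 nM they were -0.48, -0.55, -0.38 and -0.29. The 2 probe sets of Clcn4 thus do not give one answer. Clcn5, Clcn7 and Clcn2 passed in 0 comparisons. Clcn5 (the renal and endosomal exchanger) lay between 4542 and 6198 on its brighter probe set, and Clcn7 (lysosomal) between 2550 and 5203 on its brighter one.

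**Figure D3:**
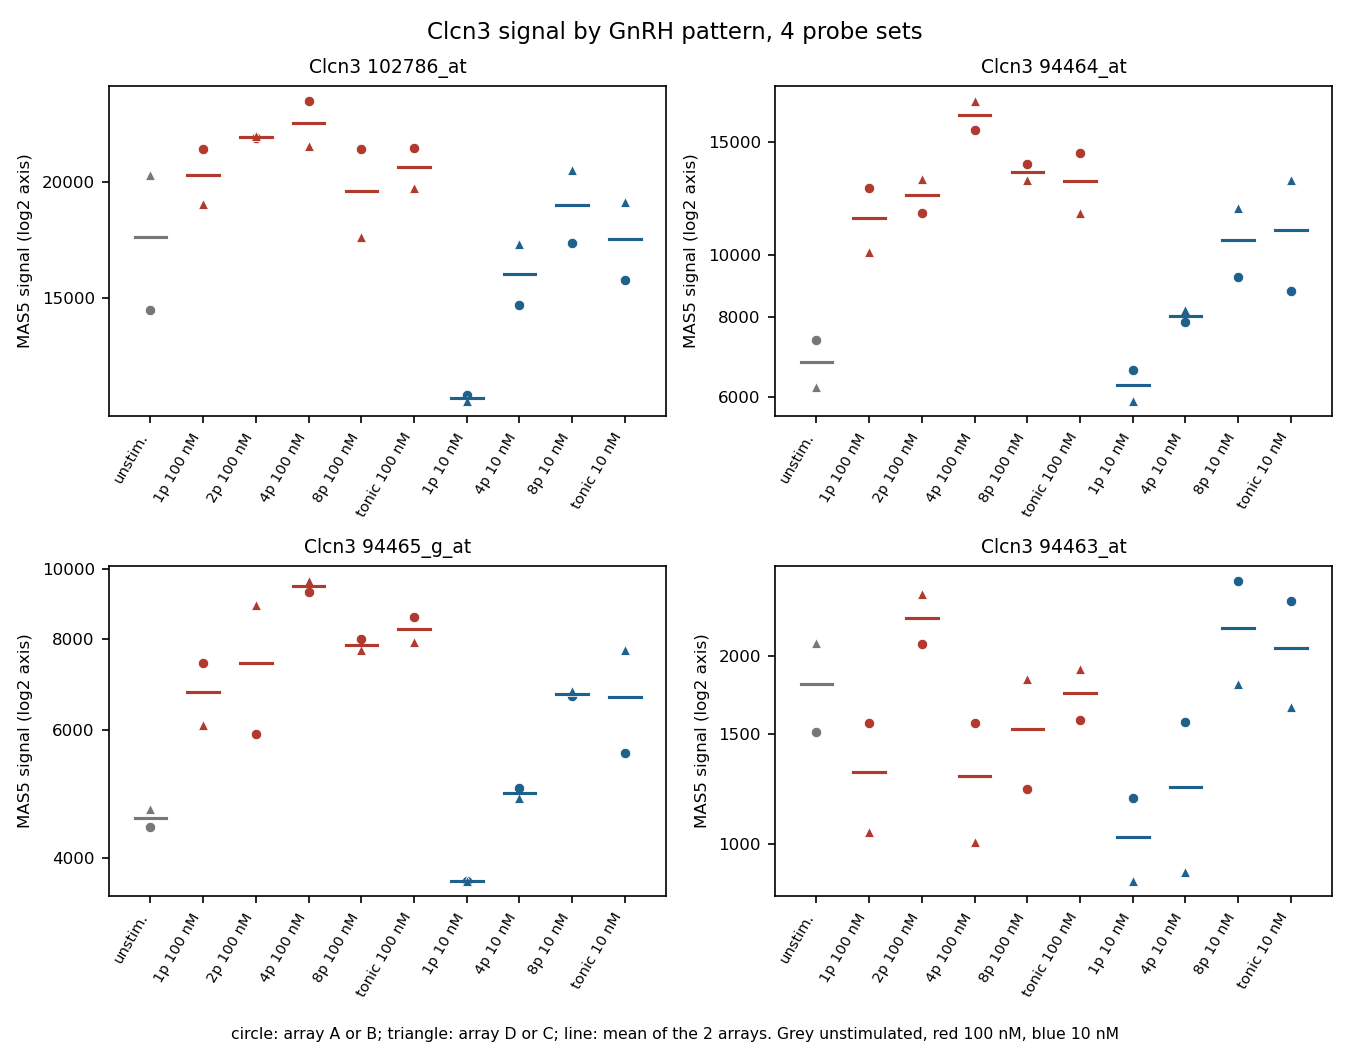
Signals of the 4 Clcn3 probe sets (vertical, MAS5 signal on a log2 axis) in the 10 groups (horizontal; grey unstimulated, red 100 nM, blue 10 nM; points are single arrays, lines the mean of 2). On each of the 4, 1 pulse at 10 nM is the lowest group mean, and on 94464_at and 94465_g_at all 100 nM arrays are above the unstimulated pair.

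GnRH acts on many promoters through cAMP response elements, AP-1, Egr and serum response factor sites, so the start-site sequences of the members were searched for these. Those of Clcn3, Clcn4 and Cacnb2, genes called above or below, were picked after the search because they hold a match, and that of Trpv2 is shown as a called gene without one. They come from RefSeq (GRCm38.p6), which matched 33 of the 42 kept genes in 48 windows; Kcnk3 and Cacng1 were not among them. Each runs from 250 bases before an annotated transcription start to 30 bases from the start on, 5′ to 3′ on the gene's strand. Capitals mark TGACG or its complement CGTCA and the full element TGACGTCA, which contains both. Clcn3 is at chr8:60983282-60983561 on the minus strand, Clcn4 at chr7:7299528-7299807 on the minus strand, Trpv2 at chr11:62574236-62574515 on the plus strand and Cacnb2 at chr2:14823842-14824121 on the plus strand.

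Clcn3: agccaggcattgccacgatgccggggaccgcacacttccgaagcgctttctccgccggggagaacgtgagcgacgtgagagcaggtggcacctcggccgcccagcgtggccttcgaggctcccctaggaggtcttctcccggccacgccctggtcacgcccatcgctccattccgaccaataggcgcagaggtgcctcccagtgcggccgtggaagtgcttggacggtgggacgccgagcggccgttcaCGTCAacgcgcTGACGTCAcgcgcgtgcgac

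Clcn4: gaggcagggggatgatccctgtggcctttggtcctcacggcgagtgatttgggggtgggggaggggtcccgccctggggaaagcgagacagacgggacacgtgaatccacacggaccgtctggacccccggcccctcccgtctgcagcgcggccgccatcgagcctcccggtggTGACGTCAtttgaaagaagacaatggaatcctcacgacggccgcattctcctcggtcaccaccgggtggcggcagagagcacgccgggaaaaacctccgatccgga

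Trpv2: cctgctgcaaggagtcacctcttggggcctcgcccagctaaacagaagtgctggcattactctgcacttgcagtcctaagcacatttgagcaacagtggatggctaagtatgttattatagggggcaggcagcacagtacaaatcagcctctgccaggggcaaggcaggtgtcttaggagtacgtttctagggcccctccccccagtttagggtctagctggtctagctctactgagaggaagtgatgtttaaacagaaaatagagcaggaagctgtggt

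Cacnb2: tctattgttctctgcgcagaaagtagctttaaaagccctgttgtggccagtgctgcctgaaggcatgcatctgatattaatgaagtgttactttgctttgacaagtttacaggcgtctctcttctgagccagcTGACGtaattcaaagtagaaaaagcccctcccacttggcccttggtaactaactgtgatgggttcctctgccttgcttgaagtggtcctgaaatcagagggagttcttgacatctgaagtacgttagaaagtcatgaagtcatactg

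The full element TGACGTCA, searched on both strands over 300 bases, was found in 1.79% of all 32851 windows and in 2 of the 48 member windows, those of Clcn3 and Clcn4. In Clcn3 it lies at bases 11 to 18 counted from the start, and in Clcn4 from base -76 to -69. The shorter TGACG, which every full element contains, was in 14 of 48 windows (29.2%, against 20.8% of all). The Egr sequences GCGGGGGCG and GCGTGGGCG were in 3 windows (6.25%, against 3.47%), and the AP-1 sequence TGANTCA (7.81% of all windows) and the CArG box (1.63%) were in 0 of the 48. A match is a run of letters and not a shown site, and the windows of Trpv2, the member with the smallest p, held none of the searched letters. Clcn3, Clcn4 and Cacnb2 each have a second window that is not shown: those of Clcn3 and Cacnb2 hold no TGACG, and that of Clcn4 holds it at bases 45 to 49. Of other called genes, TGACG was in 1 of 3 windows of Kcnab2 and 1 of 3 of Cacna1c, and in 0 of those of Kcnd2, Cacng2 and Itpr2.

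The 3 kept auxiliary subunits of calcium channels were each low in different groups. Cacng1, the gamma subunit of the skeletal muscle calcium channel, was low in one group alone: 132 and 133 under tonic 100 nM, against 422 to 839 on the other 18 arrays. It read 575 and 422 unstimulated, 837 and 549.9 after 8 pulses at 100 nM, and 652 and 835 under tonic 10 nM. It fell by 1.14 ± 0.23 from unstimulated (adjusted p 0.00177) and by 1.50 ± 0.23 from 8 pulses (adjusted p 0.0357).

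Cacng1 was the only 1 of all 8494 probe sets called between tonic hormone and 8 pulses at 100 nM. At 10 nM that difference was 0.03 ± 0.23 (adjusted p 1), and the difference between the doses, -1.53 ± 0.33, had the smallest p of all probe sets but did not pass (adjusted p 0.868). The call against 8 pulses was lost in 16 of the 20 fits that left out 1 array, with a change between -1.74 and -1.26 throughout. Without 8 pulses 100 nM A, whose Gapdh ratio was 1.69, it was among the lost calls, and without the 3 arrays of raised ratio it was -1.26 ± 0.27 (adjusted p 0.496). The Gapdh ratios of the tonic 100 nM arrays were 1.02 and 1.07.

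Cacng2 (stargazin, known for carrying AMPA receptors to synapses) was low in other groups. It read 396 and 729 unstimulated, 897 and 865 after 1 pulse, 819.5 and 507 after 2 pulses, 206 and 103 after 4 pulses, 471 and 413 after 8 pulses and 316 and 261 under tonic hormone at 100 nM. At 10 nM it read 560.1 and 642, 671 and 692, 508 and 591 after 1, 4 and 8 pulses, and 181 and 124 under tonic hormone. The arrays of 4 pulses at 100 nM and of tonic hormone at both doses were below all the others.

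Cacng2 fell by 1.16 ± 0.27 after 4 pulses at 100 nM (adjusted p 0.00902) and by 1.16 ± 0.27 under tonic 10 nM (adjusted p 0.0146). Its value under tonic 100 nM, -0.64 ± 0.27, did not pass (adjusted p 0.106). The 4-pulse call was lost without 4 pulses 100 nM D (adjusted p 0.136) or unstimulated D (0.138), and the tonic 10 nM call without tonic 10 nM B (0.059) or C (0.0896) or unstimulated D (0.17). The 4-pulse arrays had the Gapdh ratios of 1.21 and 1.23, and their part in that value was not tested, while those of tonic 10 nM were 0.955 and 0.988. The trend at 100 nM was -0.37 ± 0.09 per doubling (adjusted p 0.0138), although the order was not by pulse number, and without the 3 arrays of raised ratio it was -0.28 ± 0.11 (adjusted p 0.201). It was also lost without 1 pulse 100 nM A (adjusted p 0.0755) or D (0.0708) or 8 pulses 100 nM D (0.0528).

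Cacnb2 encodes a beta subunit, which brings voltage-gated calcium pores to the membrane. It was 2756 and 3231 unstimulated, 2269 and 2802 after 1 pulse, 2639.9 and 2321 after 2 pulses, 2234 and 1554 after 4 pulses, 2281 and 1595 after 8 pulses and 1205 and 1305 under tonic hormone at 100 nM. The pairs at 10 nM were 2880.03 and 2873, 1964 and 1939.98, 1576 and 1802 after 1, 4 and 8 pulses, and 2371 and 2836 under tonic hormone. Tonic 100 nM was below every other array, while at 10 nM the lowest pair was that of 8 pulses.

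Cacnb2 fell by 1.15 ± 0.20 under tonic 100 nM (adjusted p 0.000475), and by 0.57 ± 0.15 over the 100 nM patterns (adjusted p 0.0178). The latter call was lost without either unstimulated array (adjusted p 0.063 without A and 0.237 without D). At 100 nM it also passed after 4 pulses, with -0.63 ± 0.20 (adjusted p 0.0395), and after 8 pulses, with -0.60 ± 0.20 (adjusted p 0.0499). Of the 20 fits that left out 1 array, 5 lost the 4-pulse call and 17 the 8-pulse call. After 8 pulses at 10 nM the value was -0.77 ± 0.20 (adjusted p 0.0504). The difference between the doses in tonic against 8 pulses was -1.12 ± 0.28, and it did not pass (adjusted p 1).

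**Figure D4:**
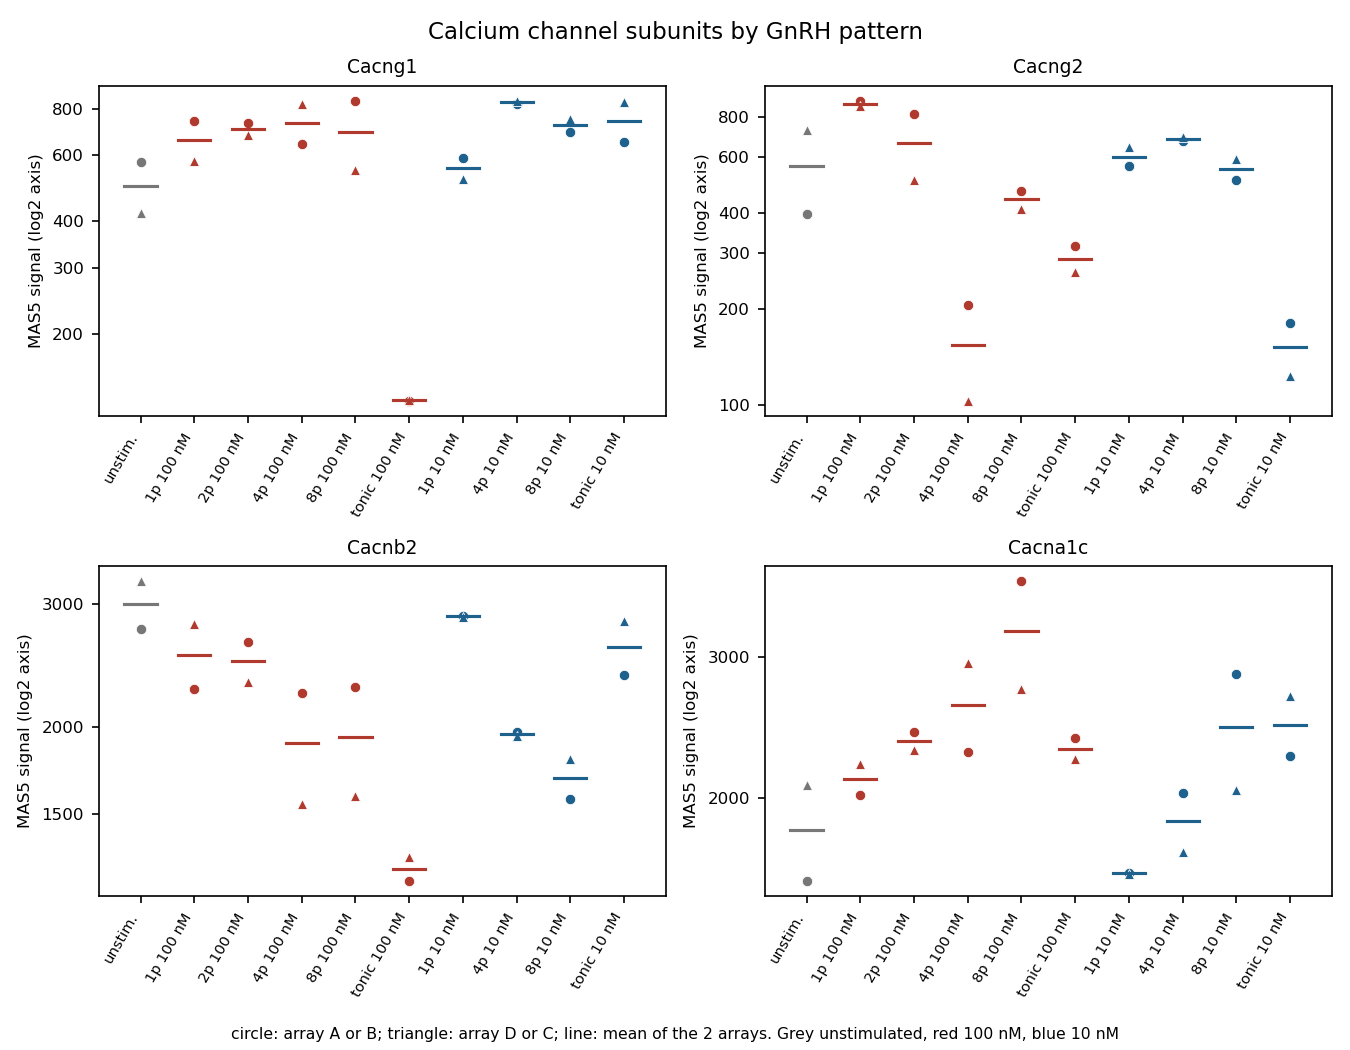
Signals of Cacng1, Cacng2, Cacnb2 and Cacna1c (vertical, MAS5 signal on a log2 axis) in the 10 groups (horizontal; grey unstimulated, red 100 nM, blue 10 nM; points are single arrays, lines the mean of 2). Cacng1 reads 132 and 133 under tonic 100 nM alone, Cacng2 is lowest after 4 pulses at 100 nM and under tonic hormone, and Cacnb2 is lowest under tonic 100 nM.

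Calcium pores passed in single comparisons only. Cacna1c, the L-type pore Cav1.2, was read by a probe set of suffix s, and whether its probes match other transcripts was not checked. Cacna1c was 1576 and 2074 unstimulated and 3734 and 2734 after 8 pulses at 100 nM, a rise of 0.77 ± 0.20 (adjusted p 0.0153). Without 8 pulses 100 nM A, the array with the Gapdh ratio of 1.69, it was 0.55 (adjusted p 0.162), and without unstimulated A 0.59 (adjusted p 0.145). Its value over the 100 nM patterns was 0.43 ± 0.16 (adjusted p 0.0765). Cacna1g, a T-type pore, was above the minimum only on the 2 arrays of 4 pulses at 100 nM, at 489 and 617, against 111 to 263 elsewhere. It passed the filter through that group, so its call there, 0.94 ± 0.31 (adjusted p 0.0466), had to show a difference, and these arrays had the raised Gapdh ratios. The call was lost in 12 of the 20 fits that left out 1 array, with the highest adjusted p, 0.22, without unstimulated D. Cacna1h, the other T-type pore, ran from 42.3 to 614 and Cacna1b, the N-type pore, from 634 to 1200.2, and neither passed in any comparison.

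Of the calcium release channels, Itpr2 (the type 2 inositol trisphosphate receptor) fell by 0.73 ± 0.22 under tonic 100 nM on 1 of its 2 kept probe sets (adjusted p 0.0266). That probe set, whose probes are shared within a family, read 2305 and 2111 unstimulated and 1063 and 1497 under tonic hormone, and its call was lost without tonic 100 nM A (-0.51, adjusted p 0.224) or unstimulated A (adjusted p 0.128) or D (adjusted p 0.0723). The other kept probe set read 6613 and 7968 against 3262 and 5737, a change of -0.72 that did not pass (adjusted p 0.158). With the letter as a replicate block it did (adjusted p 0.0209). Itpr2 had 2 more probe sets, at highest 257 and 166. Ryr3 lay between 359 and 786 and had an adjusted p of 0.979 over the 10 groups.

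The other potassium and sodium channel members differed in how closely the 2 arrays of a group read. The median gap over the 10 groups, in log2(signal + 166.8), was 0.66 for Kcnn1, 0.57 for Kcnj6 and 0.38 for Scn8a, against 0.13 for Kcnn4 and 0.09 for Kcnma1. Kcnn1, a small-conductance calcium-activated potassium channel, was 932 and 346 unstimulated and 1117 and 246 after 4 pulses at 10 nM, and its adjusted p over the 10 groups was 0.461. Kcnma1, the large-conductance BK channel, lay at 656 to 1063 on the 20 arrays, with -0.27 ± 0.16 at 100 nM (adjusted p 0.265). Scn8a (Nav1.6), the one sodium pore kept, was 387 and 550.4 unstimulated and above the minimum on 3 arrays. Kcnj9 (GIRK3) ran from 114 to 629 on one probe set and 635 to 2419 on the other, with adjusted p of 0.605 and 0.859.

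The share of members past the threshold is given for each comparison beside that of all probe sets, and the difference between these shares was not tested. All comparisons against unstimulated share the same 2 unstimulated arrays. Over the 100 nM patterns 6 of 52 passed, 4 higher and 2 lower (11.5%, against 14.2% of all), and over the 10 nM patterns 2, both higher (3.85%, against 1.91%). The median change of the 52 was -0.05 at 100 nM and -0.14 at 10 nM, against -0.05 and -0.05 for all 8494. Members whose arrays did not overlap the unstimulated pair numbered 5 at 100 nM (13.7% of all probe sets did not) and 6 at 10 nM (12.4% of all).

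Pattern by pattern at 100 nM, limma called 0 members after 1 pulse (0% of all, with 7 members at an unadjusted p under 0.05), 2 after 2 pulses (0.624% of all), 6 after 4 pulses (14.9%), 8 after 8 pulses (14.3%) and 10 under tonic hormone (20.4%). The 2 after 2 pulses were Kcnk3 and Clcn3, and the latter, at an adjusted p of 0.0496, was lost in 18 of the 20 fits that left out 1 array. The tonic calls were 4 higher, for Trpv2, Kcnk3 and 2 probe sets of Clcn3, and 6 lower, for Cacnb2, Cacng1, Kcnd2, Kcnab2, Kcnab3 and Itpr2. With 10 nM hormone limma called 0 after 1 pulse (0% of all, 6 members at an unadjusted p under 0.05), 0 after 4 pulses (0.0589%, 6 unadjusted), 2 after 8 pulses (2.23%) and 4 under tonic hormone (7.41%). The last were Trpv2, Kcnk3 and Clcn3 upward and Cacng2 downward. The Clcn3 call, 0.65 ± 0.19 on 94464_at (adjusted p 0.0463), was lost in 11 of the 20 fits that left out 1 array, down to 0.37 without tonic 10 nM C (adjusted p 0.353).

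The trend in pulse number called 4 members at 100 nM, Trpv2 upward and Cacng2, Kcnab2 and Kcnd2 downward (6.89% of all), and 2 at 10 nM (2.1% of all). Tonic against 8 pulses called 1 at 100 nM (0.0118% of all) and 0 at 10 nM (0% of all), where 3 members had an unadjusted p under 0.05. The dose comparison called 8, from 6 genes: 5 higher at 100 nM, of Clcn3, Clcn4 and Trpv2, and 3 lower, of Kcnab2, Kcnab3 and Cacng1 (15.4%, against 23.6% of all). Without the 3 arrays of raised Gapdh ratio it called 4 members of 49 and 8.1% of all. The difference of the trends between doses called 0 members (0.0118% of all, 5 members unadjusted), and the difference of tonic against 8 pulses 0 (0% of all, 3 unadjusted).

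**Figure D5:**
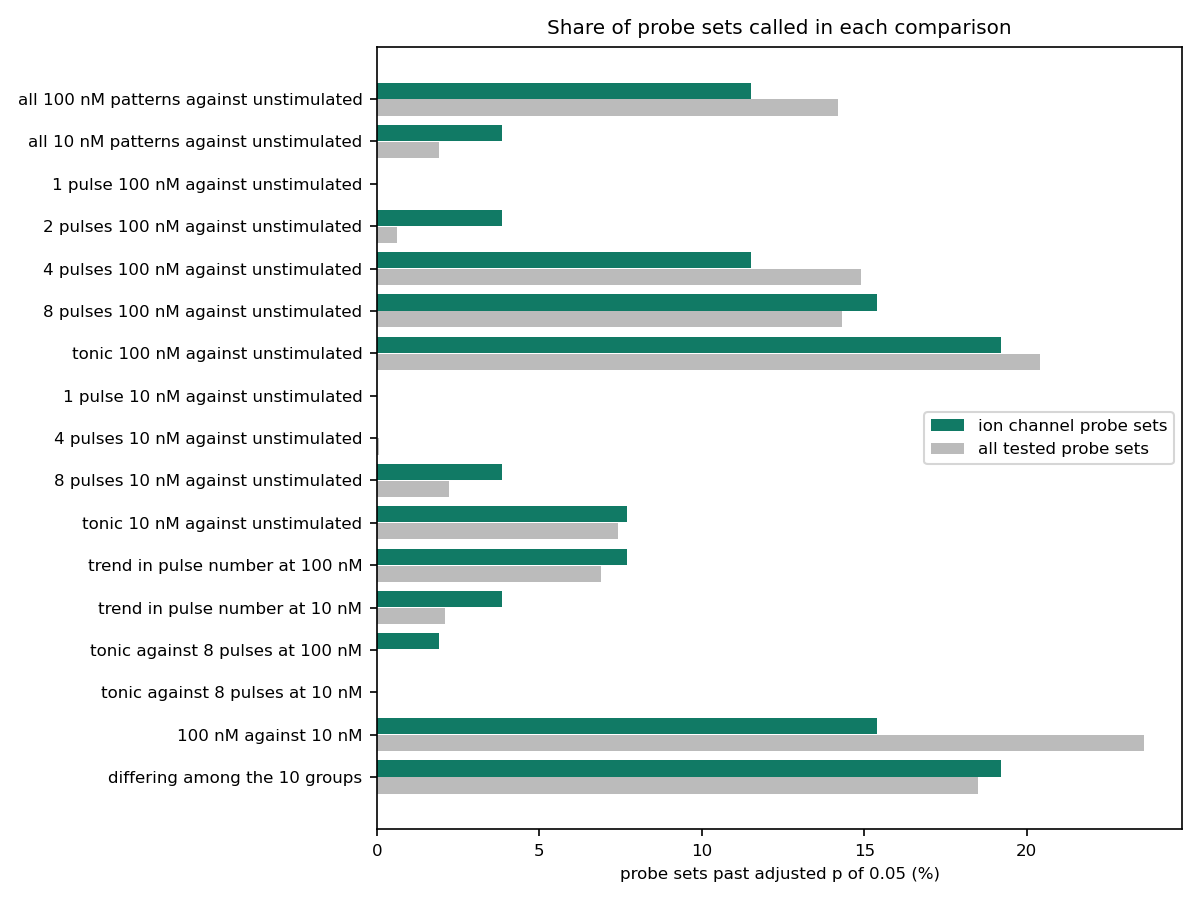
Share of probe sets past an adjusted p of 0.05 in each comparison (horizontal, percent), for the 52 ion channel probe sets (green) and all 8494 tested (grey). The green bar is 19.2% against 18.5% over the 10 groups and 15.4% against 23.6% for 100 nM against 10 nM.

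A list of 75 genes that signal to channels (GnRH receptor coupling, calcium handling and sensing, kinases, channel regulators) had 45 tested on the array. Over the 100 nM patterns 5 rose and 4 fell (14.2% of all probe sets passed), and over the 10 nM patterns 1 rose and 1 fell (1.91% of all). Among those that rose were Rrad, with 2.80 ± 0.24 (adjusted p 1.29e-06), and Gem, with 0.99 ± 0.27 (adjusted p 0.0197), GTPases known to bind beta subunits such as that of Cacnb2 and to inhibit calcium channels. Those that fell included Stim1, the calcium sensor of the endoplasmic reticulum, by 0.50 ± 0.16 (adjusted p 0.044) and Gna11, a Gq-family G protein, by 0.50 ± 0.15 (adjusted p 0.0301). The trend at 100 nM called 4 upward and 1 downward (6.89% of all).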

How the data were processed

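LβT2 RNA was labelled with biotin and hybridised to 20 Affymetrix arrays, per the labels' protocols. The deposited values are MAS5 signals, probe set intensity on a linear scale, per the submitters' processing notes; which MAS5 version, chip description file and scaling target were used is not stated there. The 2% trimmed mean was 2501.25 to 2501.75 on every array, and that scaling was kept.

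Symbols come from the platform annotation: 10833 probe sets have 1 symbol, 396 several and 1193 none. With 66 controls left out, 8494 probe sets exceeded 427 (the rounded 40th percentile) on 2 arrays. The constant 166.8 is the 25th percentile. Limma 3.58.1 in R 4.3.3 fitted 10 group means (10 residual and 8.21 prior degrees of freedom, intensity trend), with two-sided p. The script was tested on simulated data. The number of arrays limits the precision.

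Comparisons were each dose and each pattern set against unstimulated, a linear trend over log2 of the pulse number, tonic against 8 pulses, 100 nM against 10 nM over their shared patterns, and the 10 groups together. The 2 differences between doses were added after the data were seen. Named genes are members called in the dose, trend, tonic-against-pulse or dose-against-dose comparisons, the member of smallest p in each type, a fixed set of calcium and potassium channel genes, and the other probe sets of these genes; others were chosen after their values were seen. Members and lists were chosen with earlier results of these data known.

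Arrays sharing a letter were checked as pairs by the correlation of their residuals, with a minimum of 0.1. The 6 group pairs of letters B and C correlated at 0.13 to 0.345, all past it. For A and D 14 of 15 did (0.0798 to 0.320), so by that minimum only the 10 nM arrays count as paired. These ranges overlap, so the check cannot show that A and D are unpaired. The main p-values use no pairing at either dose. Alternatives were quantile normalisation, equal medians, a floor of 55.2, no filter, a filter at 1362, the letter as a block, groups from the other label field, leaving out each array, and, after the data were seen, leaving out the 3 arrays of highest Gapdh ratio.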

Additional observations from a re-analysis of the deposited data

How the results depend on the processing

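Of 65 calls of a member in a comparison, 0 changed sign under quantile normalisation, equal medians, a floor, no filter or the block. None of those fitted changed sign under the stricter filter, the removed Gapdh arrays or the left-out arrays. The stricter filter fitted 53 of them, and the fit without the Gapdh arrays had no calls at 4 pulses 100 nM. The threshold was lost by 8 calls under quantile normalisation, 11 under equal medians, 3 with the floor and 13 without a filter. Calls were also lost without the Gapdh arrays or without single arrays, as given above for single genes. With groups from the characteristics, every comparison that had calls had 0, and 10 values turned: Cacnb2 to 0.063 over the 100 nM patterns, 0.25 after 4 pulses and 0.14 after 8 pulses; Cacna1g to -0.17 and Cacng2 to 0.67 after 4 pulses; Kcnab3 to 0.00046 and Clcn3 (94464_at) to -0.10 under tonic 100 nM; Clcn3 to -0.36 under tonic 10 nM; Trpv2 to -0.015 and Kcnd2 to 0.063 in the 100 nM trend. This regrouping joined the pulse number of the other label field to the dose in the sample title. It made 4 pulses 100 nM D unstimulated, placed unstimulated D in tonic 100 nM and left out 1 pulse 10 nM C. The cause of the turned values was not tested.

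Counts of members called that moved by over 1.5 times were as follows. Quantile normalisation gave 5 for 8 pulses at 100 nM and 1 for the 10 nM trend. Equal medians gave 0 for 2 pulses and 5 for 8 pulses at 100 nM. The floor gave 1 for the 10 nM trend. Without a filter there was 1 over the 10 nM patterns, 0 for 2 pulses, 1 for 8 pulses at 10 nM, 1 for the 10 nM trend and 0 for tonic against 8 pulses at 100 nM. The stricter filter (23 members) gave 4 for the 10 nM trend. It also gave 0 for tonic against 8 pulses at 100 nM, but it had removed Cacng1, at highest 839, so that call was not tested there. The replicate block gave 4 over the 10 nM patterns, 12 for 4 pulses at 100 nM, 5 for 8 pulses at 10 nM, 5 for the 10 nM trend and 13 for 100 nM against 10 nM, and it ended 0 of the 65 calls. Without the 3 arrays of highest Gapdh ratio (49 members) there were 1 for 2 pulses, 4 for 8 pulses, 0 for tonic against 8 pulses at 100 nM and 4 for the dose comparison; 4 pulses at 100 nM had 0 of its arrays left and was not fitted.

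Leaving out 1 array at a time gave 3 to 7 calls over the 100 nM patterns (3 without unstimulated D), 0 to 2 over the 10 nM patterns (0 without unstimulated D, 1 without unstimulated A), 0 to 2 for 2 pulses at 100 nM (0 without either array of that group or of unstimulated), 3 to 8 for 4 pulses (3 without its array D), 3 to 8 for 8 pulses (3 without unstimulated A, 4 without unstimulated D or its own A) and 8 to 10 for tonic at 100 nM. At 10 nM the ranges were 0 to 3 for 8 pulses (0 without its array B or unstimulated D) and 2 to 4 for tonic (2 without its array C or unstimulated D). The 100 nM trend ran from 1 to 4 (1 without either array of 1 pulse, 2 without 8 pulses A), the 10 nM trend from 0 to 3 (0 without any array of 1 or 8 pulses at 10 nM), tonic against 8 pulses at 100 nM from 0 to 1, 100 nM against 10 nM from 7 to 11, and the 10 groups together from 8 to 12. Over the 10 groups, Trpv2, Kcnk3, Kcnd2, Cacnb2, Cacng1, Cacng2 and 2 probe sets of Clcn3 stayed called in each left-out fit. Signals near the minimum of 427, as for the 10 members seen on 2 to 4 arrays, limit what can be said of weakly expressed channels.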
